A study of Branchiostoma belcheri with 2 samples.

Results

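The microRNA (miRNA) families miR-71, miR-252, miR-278 and miR-281, known from invertebrates, were examined in the gill of the Chinese amphioxus *Branchiostoma belcheri*. They were chosen by name: every array probe whose name after the species prefix is 1 of these 4, with any letter or arm suffix. This gave 25 of the 1686 miRNA probes on the array, with 4 for miR-71, 9 for miR-252, 4 for miR-278 and 8 for miR-281. Of the 25, 3 were designed for *B. belcheri* (prefix bbe) and 7 for the Florida amphioxus *B. floridae* (bfl). The other 15 were designed for an acorn worm (sko, 5), a sea urchin (spu, 5), the sea squirts cin (2) and csa (1), the larvacean odi (1) and the sea lamprey (pma, 1). Adults of the LPS group were injected in the body cavity with 15 µl of lipopolysaccharide (LPS, a surface component of Gram-negative bacteria that animals sense as a sign of infection), dissolved at 1 mg/ml in PBS, and their gills are labelled as sampled after 12 h. Adults of the control group had an equal injection of PBS alone, and no time is stated for their array. Each group had 1 single-colour (Cy3) array, so no test between the groups was possible, no p-value is given, and treatment and array cannot be told apart. How many animals were pooled for an array is not stated in the labels.

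A miRNA is cut from an RNA hairpin whose sides give the 5p and the 3p arm, and its seed (bases 2 to 8) pairs with messenger RNAs and lowers their translation or stability. These families are shared by amphioxus and many protostomes and are not known from jawed vertebrates. In the worm *Caenorhabditis elegans*, miR-71 lengthens lifespan and represses tir-1, which encodes an adaptor protein with a TIR domain that also acts in innate immunity. In the fly *Drosophila melanogaster*, miR-278 takes part in energy balance. The array carries a lamprey probe named miR-281a, so for miR-281 the absence holds for jawed vertebrates only.

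The sequences below are the probe targets as listed in the scanner files, with the seed in capitals. They are shown because the targets of the miR-71 5p arm, the miR-278 3p arm and the miR-281 3p arm each share 1 seed and differ outside it. The miR-71 targets come first.
bfl-miR-71-5p: uGAAAGACauggguagugagau
spu-miR-71: uGAAAGACauggguagugagauu
sko-miR-71: uGAAAGACacagguagugagau
bfl-miR-71-3p: cCCAUUUCccugucuuucaaca
The miR-278 targets of the 3p arm differ from base 9 onwards.
bfl-miR-278: uCGGUGGGguuuucguucgagu
spu-miR-278-3p: uCGGUGGGacuuucguucgauu
sko-miR-278: uCGGUGGGacuuucguucguuu
The miR-281 targets of the 3p arm are listed with the 1 detected target of the 5p arm.
bfl-miR-281: uGUCAUGGaguugcucucuuuu
sko-miR-281: uGUCAUGGaguugcucucuuaa
pma-miR-281a: uGUCAUGGaguugcucucuugc
cin-miR-281-3p: uGUCAUGGaguugcucucuuauu
csa-miR-281: uGUCAUGGaguugcucucucauu
odi-miR-281: uGUCAUGGaauugcucucuug
bbe-miR-281-5p: gGGAGAGCcuuuccgugacugu
For miR-252, the amphioxus targets of the 5p arm are shown because their seeds differ.
bfl-miR-252a: cUAAGUACuagugccgcaggugu
bfl-miR-252b-5p: cUAAGUAGuacugccgcagggag
bbe-miR-252b-5p: uGCUAAGUaguacugccgcaggga

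The 25 targets hold 12 seeds. The 3 miR-71 targets of the 5p arm share GAAAGAC, the 3 miR-278 targets of the 3p arm share CGGUGGG, and the 6 miR-281 targets of the 3p arm share GUCAUGG. Names without an arm suffix (such as bfl-miR-281) were assigned to the arm of the closest suffixed target of their family. The miR-252a and miR-252b targets of bfl, sko and spu have seeds that differ at base 8 (C8G, counted from base 1 at the 5′ end of bfl-miR-252a). The target bbe-miR-252b-5p starts 2 bases further upstream than bfl-miR-252b-5p and lacks its last base (3 edits), which moves its seed to GCUAAGU. None of the 1661 other probes on the array shares a member's seed, and the closest of them lies 6 edits from a member or its reverse complement.

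Signal is given as the median Cy3 intensity of each spot in arbitrary units, with 2 repeat spots per probe and array. Detection on an array meant a mean over the repeat spots higher than 95% of that array's 304 empty spots, a level of 143.5 on the LPS array and 121.9 on the control array. Of the 25 probes, 14 were detected on the LPS array and 19 on the control array, and no probe was detected on the LPS array only. Over the whole array 339 of 1686 probes were detected on the LPS array and 648 on the control array. Log2 differences are LPS minus control after background correction and quantile normalization, and ± gives the SE from the 2 repeat spots of each array, a technical error. To count as higher or lower, a probe had to be detected on either array, differ by 2-fold or more, and have no overlap of its repeat spots between the arrays.

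**Figure D1:**
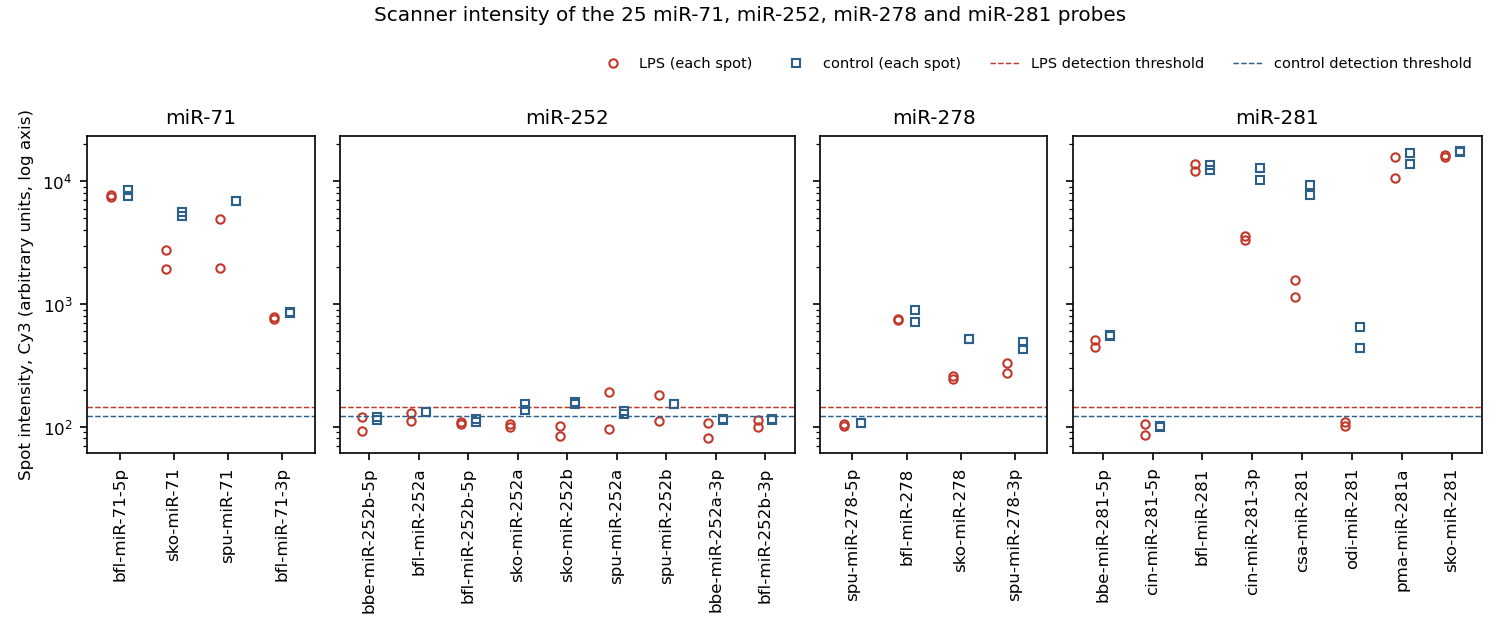
Spot intensity (arbitrary units, log axis) of the 25 probes by family, with both repeat spots of the LPS array (circles) and of the control array (squares) and the detection threshold of each array (dashed lines, 143.5 for LPS and 121.9 for control). The miR-252 probes lie near the thresholds on both arrays, while csa-miR-281, cin-miR-281-3p and odi-miR-281 have LPS spots far below their control spots.

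Among the 19 detected members, under quantile normalization (the main setting) 4 were counted as higher on the LPS array, all of them amphioxus probes, 2 were counted as lower, both of them tunicate probes for miR-281, and 13 passed in neither direction. Over the 684 detected probes of the array, 10.5% were counted as higher and 10.5% as lower. The median difference was 0.32 over the detected members and -0.10 over all detected probes. The 4 higher members were bfl-miR-278, bfl-miR-71-3p, bfl-miR-71-5p and bbe-miR-281-5p, with differences between 1.07 and 1.23, and these calls depended on the normalization. With no normalization between the arrays all 4 lay slightly below 0 (-0.048, -0.11, -0.077 and -0.14, in the same order). With loess none of them reached 2-fold (0.73, 0.66, 0.32 and 0.68), nor did any when the arrays were scaled on calibration spots (0.83, 0.77, 0.81 and 0.74). The median of all 684 detected probes itself moved between these settings, standing at -0.18 with no normalization, -0.14 with loess and 0.70 with calibration spots. Other choices ended single calls as well. With a background offset of 200 bbe-miR-281-5p stood at 0.83, leaving 3 members higher and 2 lower (6.43% and 7.46% of all detected probes). At this offset bfl-miR-71-3p (1.00002) and bfl-miR-278 (1.003) only just passed 2-fold. With equal array medians bbe-miR-281-5p stood at 0.98. In the deposited table, scaled to equal medians, it was at 0.69 and bfl-miR-278 at 0.76. Without repeat spot 2, bfl-miR-71-5p and bbe-miR-281-5p (each 0.99) fell just short of 2-fold and bfl-miR-281 (1.04) reached it. Counts of members moved with the normalization: 0 higher and 5 lower with no normalization (3.65% and 18.7% of all detected probes), 0 and 3 with loess (5.26% and 11.4%), 3 and 2 with calibration spots (25.9% and 9.21%), and 8 and 2 with equal array medians (45.9% and 8.33%). Of the higher members, 1 of 3 with calibration spots and 5 of 8 with equal array medians were amphioxus probes. The deposited table, after scaling to equal medians, gave 5 and 5 (17.1% and 46.5%). This table and the sets without a repeat spot hold 1 value per probe and array. Their calls therefore rest on detection and the fold threshold only, without the condition on overlap.

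The miR-71 family was detected with all 4 probes on both arrays. The probe bfl-miR-71-5p read 7404 and 7801 on the LPS array, against 8447 and 7658 on the control array. Before normalization the arrays overlapped, with a ratio of LPS to control of 0.944. After it, the probe was 2.13-fold higher on the LPS array (1.09 ± 0.08) and stood 0.82 above the median of the 303 probes detected on both arrays. Relative to that median it was also above 0 with loess (0.30), with no normalization (0.33) and in the deposited table (0.61), each time under 2-fold. Of the opposite arm, bfl-miR-71-3p read 756.3 and 783.9 on the LPS array, against 867.5 and 848.1 on the control array. Its spots were all lower on the LPS array before normalization, with a ratio of 0.898, while the normalized difference was 1.22 ± 0.04 (2.32-fold). The difference was 0.32 for the 5p arm and 0.66 for the 3p arm with loess, and 1.06 and 1.39 in the deposited table. The 3p target lies 9 edits from the reverse complement of the 5p target.

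The sea urchin and acorn worm probes for miR-71 gave smaller differences than the amphioxus probe of the same arm. The target of spu-miR-71 is that of bfl-miR-71-5p with 1 base added at the 3′ end, and the probe read 4916 and 1965 on the LPS array, against 6984 and 6875 on the control array. Its LPS spots lay 2.50-fold apart, so its normalized difference of 0.40 ± 0.57 is poorly determined. The target of sko-miR-71 differs from the amphioxus one by U10C and G11A (counted from base 1 at the 5′ end), and the probe read 2755 and 1946 on the LPS array, against 5638 and 5265 on the control array. Both LPS spots were below both control spots, with a ratio of 0.431, and the normalized difference was 0.32 ± 0.24.

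In the miR-278 family, the 3p-arm probes were detected on both arrays and the 5p-arm probe spu-miR-278-5p on neither. The probe bfl-miR-278 read 751.8 and 735.3 on the LPS array, against 891.0 and 712.6 on the control array. Its spots overlapped between the arrays before normalization, and the normalized difference was 1.23 ± 0.13 (2.34-fold). The probe sko-miR-278 read 243.4 and 258.3 on the LPS array, against 518.1 and 522.3 on the control array. The probe spu-miR-278-3p read 271.1 and 328.7 on the LPS array, against 433.2 and 491.2 on the control array. Both had every LPS spot below every control spot, at ratios of 0.482 for sko-miR-278 and 0.649 for spu-miR-278-3p, but after normalization they stood at 0.05 ± 0.07 and 0.54 ± 0.22.

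For miR-281, the 3p-arm probes divided into those with like intensity on both arrays and those with far less on the LPS array. The amphioxus probe bfl-miR-281 read 13810 and 12145 on the LPS array, against 12320 and 13488 on the control array. Its arrays overlapped, with a ratio of 1.01, and its normalized difference of 0.76 ± 0.20 (1.69-fold) did not reach 2-fold. The acorn worm probe sko-miR-281 (U21A and U22A against the amphioxus target) read 15936 and 16548 on the LPS array, against 17516 and 17776 on the control array. The lamprey probe pma-miR-281a (U21G and U22C) read 10709 and 15706 on the LPS array, against 13890 and 16928 on the control array. Neither passed, at 0.45 ± 0.08 for sko-miR-281 and 0.30 ± 0.31 for pma-miR-281a.

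The tunicate probes of the same arm were the ones with far less signal on the LPS array. The probe csa-miR-281 (U20C and U21A, 23 bases) read 1568 and 1151 on the LPS array, against 7771 and 9329 on the control array. It was counted as lower (2.50-fold, -1.32 ± 0.35), and its ratio before normalization was 0.159. Without repeat spot 2 its difference was -0.83, under 2-fold. The probe cin-miR-281-3p, which is 1 edit from the amphioxus target (a base inserted near the 3′ end), read 3581 and 3346 on the LPS array, against 10284 and 12954 on the control array. Its spots did not overlap, but the normalized difference of -0.53 ± 0.25 did not reach 2-fold. Without repeat spot 2 this difference was -0.25. The probe odi-miR-281 (G10A and U21G, 21 bases) read 100.8 and 109.7 on the LPS array, where it was not detected, against 650.0 and 440.8 on the control array. In the main setting it was at least 2.59-fold lower, a bound set against the dimmest probe still detected on the LPS array after normalization. The measured difference there was -1.93 ± 0.23. With a background offset of 200 the measured difference was -1.07, and with equal array medians -1.20, so the bound holds for the main setting only. Under quantile normalization and in each of 5 other treatments of the arrays cin-miR-281-3p, csa-miR-281 and odi-miR-281 lay below 0, between -0.53 for cin-miR-281-3p under quantile normalization and -5.53 for odi-miR-281 in the deposited table.

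Of the 5p arm of miR-281, bbe-miR-281-5p is the only *B. belcheri* probe of the 25 that was detected. It read 450.0 and 512.0 on the LPS array, against 559.3 and 552.0 on the control array. The LPS spots were the lower ones, at a ratio of 0.866, and the normalized difference was 1.07 ± 0.07 (2.09-fold). The sea squirt probe cin-miR-281-5p, 9 edits from it, was detected on neither array.

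**Figure D2:**
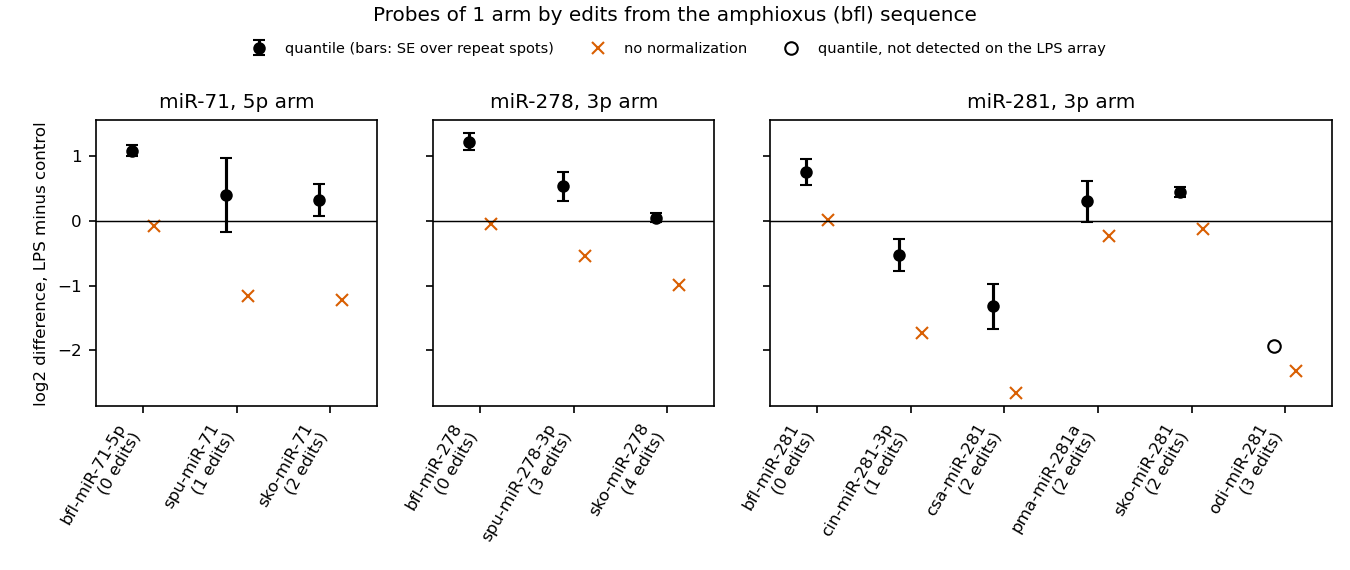
Log2 difference (LPS minus control) of the probes of 3 arms, ordered within each arm by edits from the bfl target, after quantile normalization (black, with the SE over repeat spots; open circle without SE for odi-miR-281, not detected on the LPS array) and with no normalization (crosses). In each arm the bfl probe is the highest in both settings, and the distance of csa-miR-281 and cin-miR-281-3p from bfl-miR-281 exceeds that of sko-miR-281 and pma-miR-281a.

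Within these 3 arms, the difference of the amphioxus probe could be set against 9 probes for other species, a comparison in which a constant shift between the arrays cancels. In the 8 of them detected on both arrays the amphioxus probe had the more positive difference in 8 of 8, by more than 2 SE over repeat spots in 5. These 8 comparisons share 3 amphioxus probes and are not independent. Each SE rests on 2 spots per array and can be too small for a single probe. Over all detected probes the pooled SD of log2 repeat spots was 0.72 on the LPS array and 0.21 on the control array. To odi-miR-281, not detected on the LPS array, the bound above gives a gap of at least 2.13 in the main setting, and the measured gap moved between 1.82 with an offset of 200 and 6.82 in the deposited table. The gap was 2.08 ± 0.41 to csa-miR-281, 1.29 ± 0.32 to cin-miR-281-3p and 1.18 ± 0.15 to sko-miR-278. It was 0.77 ± 0.25 to sko-miR-71 and 0.69 ± 0.26 to spu-miR-278-3p, and within 2 SE for spu-miR-71 (0.69 ± 0.58), pma-miR-281a (0.46 ± 0.37) and sko-miR-281 (0.31 ± 0.22). Equal medians, calibration spots and no normalization differ by a constant and give the same gap, so the 10 alternatives hold 8 different ones. In 7 of the 8 the gap was above 0 in each of these, and that to sko-miR-281 was -0.05 without repeat spot 1. Number of edits alone did not order the gaps, since cin-miR-281-3p at 1 edit was further from bfl-miR-281 than pma-miR-281a and sko-miR-281 at 2. Edits were counted from the *B. floridae* targets. The array holds no bbe probe for these 3 arms, so the edits from the *B. belcheri* sequences are not known here. On the maker's calibration spots, mismatched probes gave a median of 1.19% of the signal of their perfectly matched partners on the LPS array and 10.3% on the control array, and in 22 of 23 pairs the LPS array gave the lower share. These pairs had to exceed the detection threshold on the control array only, which favours lower shares on the LPS array. Their part in the gaps between probes of 1 arm was not tested.

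The miR-252 family gave signal close to the empty spots. Its 9 probes read between 80.3 and 191.4 over all spots of the LPS array, against 109.2 to 157.6 on the control array, with 1 detected on the LPS array and 5 on the control array. Detected on the control array were bfl-miR-252a (131.6 and 131.3), sko-miR-252a (137.6 and 152.3), sko-miR-252b (157.6 and 153.7), spu-miR-252a (127.7 and 135.2) and spu-miR-252b (151.9 and 153.8). All of them lay close to the threshold of 121.9. On the LPS array spu-miR-252b passed the threshold by its mean, with 1 spot at 110.4 and the other at 180.9. The probe spu-miR-252a was just below, at a mean of 143.3, with spots at 95.2 and 191.4. In the main setting no miR-252 probe was counted in either direction, and their differences ran from -0.63 ± 0.14 for sko-miR-252b to 0.39 ± 0.73 for spu-miR-252a among the detected. This depended on the normalization. With equal array medians bfl-miR-252a (1.33), spu-miR-252a (1.52) and spu-miR-252b (1.31) were counted as higher and sko-miR-252b stood at 0.62. With calibration spots the same 3 were the only members counted as higher (1.09, 1.28 and 1.06, in that order), while the median of all detected probes was 0.70. The deposited table gave 1 higher (spu-miR-252a, 1.11) and 3 lower (sko-miR-252a, sko-miR-252b and spu-miR-252b), and without repeat spot 1 spu-miR-252a was counted as higher (1.08). The *B. belcheri* probes bbe-miR-252a-3p and bbe-miR-252b-5p, and both arms of bfl-miR-252b, were detected on neither array.

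By family, the median difference of the detected probes in the main setting was 0.75 for miR-71 (4 probes), 0.54 for miR-278 (3), 0.30 for miR-281 (7) and 0.07 for miR-252 (5). This order did not hold under other normalizations. With equal array medians miR-252 was the highest of the 4 (1.31) and miR-71 the lowest (0.49), as with calibration spots (1.06 and 0.25) and with no normalization (0.18 and -0.63). With loess miR-278 was the highest (0.24) and miR-71 the lowest (-0.15). In the deposited table, scaled to equal medians, miR-71 was again the highest (0.70) and miR-252 the lowest (-1.04). There miR-281 (0.69) stood above miR-278 (-0.06). By arm the median was 0.32 for the 5p arm (9 detected of 13) and 0.37 for the 3p arm (10 of 12) in the main setting. The order was the opposite with equal medians (0.98 and 0.73), calibration spots (0.74 and 0.49), loess (0.09 and 0.05) and no normalization (-0.14 and -0.39). In the deposited table it was that of the main setting (0.09 and 0.35).

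By species, the median was 1.08 over the 6 detected amphioxus members, of which 4 were higher and 0 lower. It was 0.15 over the 198 detected amphioxus probes outside these families, of which 30 were higher and 8 lower. The members stayed above the other amphioxus probes under the other normalizations, but by less: 1.06 against 0.95 with equal medians, 0.82 against 0.71 with calibration spots, -0.063 against -0.17 with no normalization, 0.49 against 0.011 with loess, and 0.91 against 0.38 in the deposited table. For the 13 detected members of other species the median was 0.25 (0 higher, 2 lower), against -0.23 for the 467 detected probes of other species outside these families, of which 38 were higher and 62 lower. The members were instead the lower ones with equal medians (0.58 against 0.94), calibration spots (0.34 against 0.70), loess (-0.36 against -0.23) and no normalization (-0.55 against -0.18), and the higher ones in the deposited table (-0.61 against -1.49). In the main setting the 5 sko probes ranged from -0.63 to 0.45 and the 4 detected spu probes from 0.25 to 0.54, and none of these 9 passed in either direction. Probes of 1 arm can bind the same RNA and are not separate measurements.

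**Figure D3:**
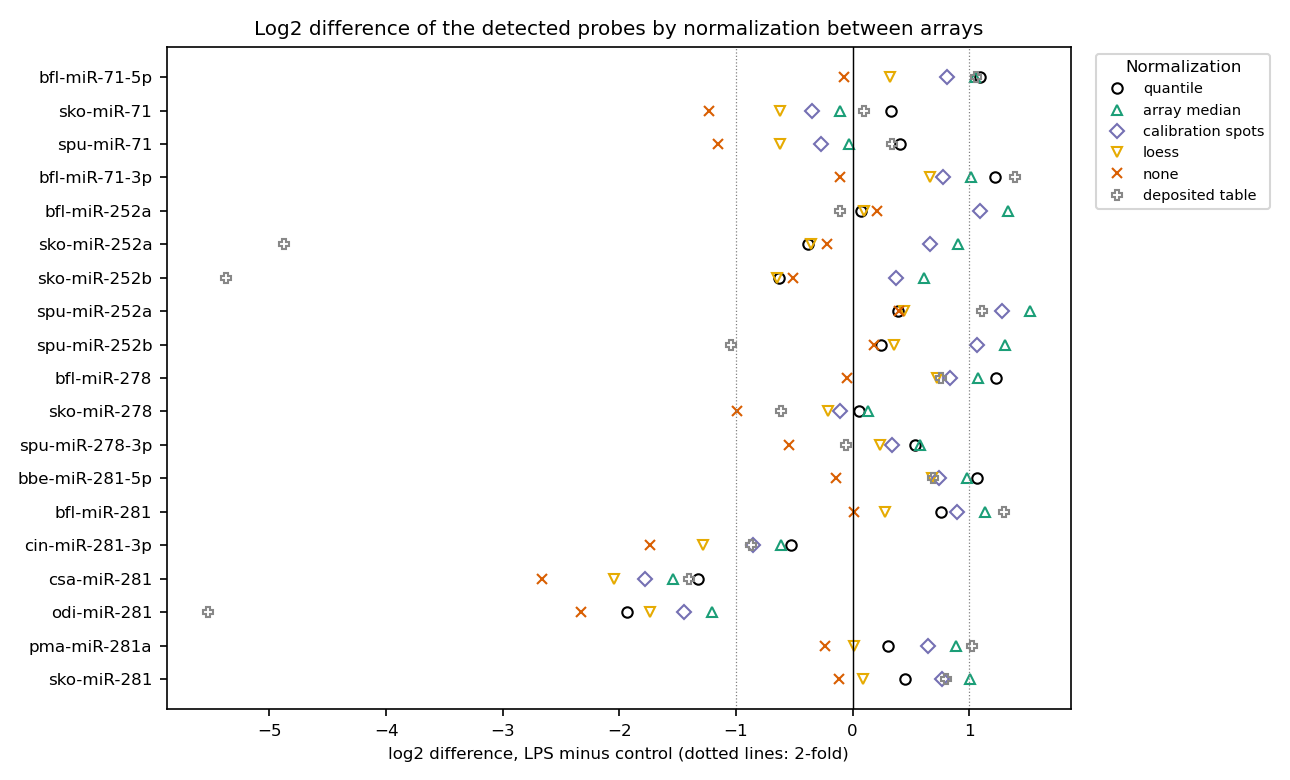
Log2 difference (LPS minus control) of the 19 detected members under 6 treatments of the arrays, with dotted lines at 2-fold. The amphioxus probes for miR-71, miR-278 and miR-281 lie near 0 with no normalization and between 0.76 and 1.23 with quantile normalization, while csa-miR-281, cin-miR-281-3p and odi-miR-281 lie below 0 in every treatment.

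In the authors' deposited table, without any scaling between its columns, the processed value of bfl-miR-71-5p was 8611 on the LPS array and 3234 on the control array (2.66-fold), and that of bfl-miR-281 was 15339 and 4879 (3.14-fold). The authors' deposited table listed csa-miR-281 at 1559 on the LPS array and 3231 on the control array, and odi-miR-281 at 5.49 and 197.9. The direction in this table was thus the same as after quantile normalization for these 4 probes. Among the detected members it was opposite only for sko-miR-278 and spu-miR-252b, whose differences after quantile normalization were 0.05 and 0.25. Their processed values were 207 on the LPS array and 248 on the control array for sko-miR-278, and 16.6 and 26.7 for spu-miR-252b. How its columns were scaled against each other is unknown.

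Of 5 further families known from invertebrates (bantam, miR-2001, miR-242, miR-315 and miR-1993), 7 probes were on the array, none of them for bantam or miR-1993. None was detected on the LPS array, and the 3 miR-242 probes were just above the threshold of the control array: bfl-miR-242 had means of 100.2 on the LPS array and 131.2 on the control array. None of the 3 miR-242 probes was counted in either direction. The 4 probes of miR-2001 and miR-315 were detected on neither array and so could not be counted. The non-member amphioxus probes detected on both arrays whose difference was nearest to that of bfl-miR-71-5p were bfl-miR-4871-3p (1.09 ± 0.14), bfl-miR-34d (1.08 ± 0.25) and bbe-miR-34b-3p (1.10 ± 0.07), a likeness that rests on 1 difference over 2 arrays.

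Over the whole array 20.1% of probes were detected on the LPS array and 38.4% on the control array. Among lists of tissue miRNAs, epithelial probes (miR-200, miR-8, miR-141 and miR-429) were detected in 13 of 23 cases on the LPS array and 18 of 23 on the control array. Those of ciliated cells (miR-34, miR-449) were detected in 11 and 18 of 27. Summed intensity was 72904 on the LPS array and 153902 on the control array for the epithelial list, and 29529 and 33567 for the ciliated list. Muscle probes were detected in 6 and 20 of 35 cases, in the same order. The counts were 2 and 6 of 10 for neural probes and 1 and 1 of 10 for blood probes. Their sums were 4390 and 6963, 1146 and 1273, and 1177 and 1141. All these sums are of intensities before background correction and normalization, over every probe of a list, detected or not. Empty spots had a median intensity of 99.8 on the LPS array and 107.3 on the control array. The neural and blood sums are thus mostly background, as is a large part of the muscle sums. The part of these tissue miRNAs in the differences above was not tested. In whole gill a change in the share of a cell type and a change of RNA per cell cannot be told apart.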

How the data were processed

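Gill RNA was measured on 1 LPS array and 1 control array. Total RNA was tailed with poly(A) and joined to a Cy3-stained oligonucleotide, per the labels. Values are median Cy3 intensities of spots, linear and with no background channel, per the file headers. Each file lists 3968 spots, of which 3372 belong to the 1686 miRNA probes. No label or header names the scanner or its software. A further table deposited by the authors holds a processed intensity for every probe on either array (column medians 3.42 for LPS and 6.88 for control, lowest value 0.01). It tracked the spot intensities (Spearman 0.978 and 0.985 across detected probes of the LPS and control arrays), and its background step and scaling are unknown.

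Spots were background-corrected by normexp (limma 3.58.1, R 4.3.3, fitted to all spots, offset 50), taken to log2, quantile-normalized over the miRNA spots and averaged over 2 repeat spots. The steps were tested on simulated data in which both arrays had the repeat-spot noise and empty spots of the control array. Only bright probes were changed, all by the same fold, and about as many were raised as lowered. The test therefore could not show how the steps behave at the larger noise of the LPS array. Nor could it show how they behave for dim probes or when most probes shift in 1 direction. Samples were grouped by the agent in the labels. The alternatives were a normexp offset of 16 or 200, uncorrected background, equal array medians (of probes detected on both arrays), loess with a span of 0.4, no normalization, scaling on perfect-match calibration spots, each repeat spot left out, other detection rules and thresholds, and the deposited table (log2 after a floor of 1, scaled to equal medians). Edit distances count substitutions, insertions and deletions between whole targets. Every member could be named. Of other probes, the 3 with the nearest difference to bfl-miR-71-5p, those within 3 edits of a member (there were 0) and the 5 comparison families were named by rule. Members and lists were chosen with earlier results of these data known.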

Additional observations from a re-analysis of the deposited data

How the results depend on the processing

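With no normalization between the arrays, the differences of bfl-miR-71-3p (-0.11), bbe-miR-281-5p (-0.14), bfl-miR-71-5p (-0.077) and bfl-miR-278 (-0.048) changed sign against the main setting. So did those of sko-miR-71 (-1.23), spu-miR-71 (-1.15), sko-miR-278 (-0.99), spu-miR-278-3p (-0.55), pma-miR-281a (-0.24) and sko-miR-281 (-0.12). In this setting the median of the detected members was -0.22. There 0 members were counted as higher and 5 as lower, against 4 and 2 in the main setting. With loess 0 were higher, with a background offset of 200 there were 3 (without bbe-miR-281-5p, 0.83), and with calibration spots 3, all of them miR-252 probes. With scaling to equal array medians 8 were higher and the median was 0.91, while the median of all detected probes was 0.94. The deposited table gave 5 lower, the set without repeat spot 2 gave 1 lower, and requiring detection on both arrays gave 1 lower (csa-miR-281). The cause was not tested. Of 250 single values over 25 probes and 10 alternatives, 90 moved by more than the spread of their repeat spots and 156 did not. The other 4, labelled as reversed, were those of the 4 higher members with no normalization. Values that changed sign were also among the 90 and the 156. Of the 19 detected members, 5 kept their sign under equal medians, calibration spots, loess, no normalization and the deposited table. These were bfl-miR-281, cin-miR-281-3p, csa-miR-281, odi-miR-281 and spu-miR-252a. With no normalization bfl-miR-281 stood only at 0.0098. The probe spu-miR-252a was not detected on the LPS array. Without repeat spot 2, a setting outside this count, its difference was -0.30. Among the 14 members detected on the LPS array, 13 also exceeded the 99th percentile of its empty spots, as did 19 of 19 on the control array. No paired analysis was possible because each group had 1 array. Signals of miR-252 lay close to the empty spots, and their calls changed with the normalization.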
